A study of Rattus norvegicus with 4 samples.

Results

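The array of denervated soleus was compared with the array of sham-operated soleus in male Wistar rats on the control diet, which took 2 of the 4 arrays of the series, chosen by their sample titles. The array carried 14217 named genes, of which 10755 were above the floor of 78.9 signal units on at least 1 of the 2 arrays and were counted as measured. The rats were 10 weeks old at the start and are also labelled as 14 weeks old, and they ate a modified AIN-93G diet with corn oil in place of soybean oil over 24 days. The sciatic nerve of the left leg was cut on day 14 and the right leg had a sham operation, so the denervated and the sham muscle are opposite legs of the same animals, and the sham leg belongs to a rat whose other hindlimb had lost its nerve. Soleus was taken 10 days after the operation and the RNA of 8 rats was pooled for each array. The genistein pair of arrays, which is set beside the control pair in places, came from other rats whose AIN-93G diet held 0.05% genistein (0.5 g per kg), a soy isoflavone, with the same ages, operation and pooling. Each group is therefore 1 array with no replicate: no test was possible, no error can be given for any single value, and differences between rats within a pool are not visible.

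The soleus is a postural muscle of slow, oxidative fibres that is active for much of the day. A motor nerve keeps a fibre in its mature state both by the activity it imposes and by signals at the endplate, where acetylcholine receptors are held in a dense cluster. When the nerve is lost, fibres are known to make receptor subunits along their whole length again, to raise the myogenic factors MyoD and myogenin together with the histone deacetylase HDAC4, and to waste. Fibre type is also under nerve control: the steady firing of slow motor neurons is known to maintain slow myosin and mitochondria, partly through calcineurin and the PGC-1 coactivators.

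The marker genes of the comparison separated the 2 arrays by large factors. Chrna1, the alpha subunit of the muscle acetylcholine receptor, read 1860 units in sham and 20550 units in denervated muscle, a log2 ratio of 3.47. Myh4, the myosin heavy chain of the fastest fibre type (IIb), read 82 units in sham muscle, close to the floor, and 18730 units in denervated muscle, a log2 ratio of 7.84. Perm1, a muscle regulator of mitochondrial and contractile genes that acts with PGC-1 and the oestrogen-related receptors, read 9243 units in sham and 128 units in denervated muscle, a log2 ratio of -6.17. The rise of Chrna1, which is known after nerve loss, stands with the titles and against the treatment-group field. That field contradicts the titles in 2 samples and labels the denervated control array as sham-treated. Chrna1, Myh4 and Perm1 were all given as markers of this same comparison, so none of them is independent evidence on the labels. The genes that define soleus were bright on both arrays. In sham and denervated muscle, slow myosin Myh7 read 48928 and 29532 units, slow troponin T Tnnt1 read 44659 and 28455 units, skeletal actin Acta1 read 41470 and 34489 units and the muscle creatine kinase Ckm read 39323 and 26218 units.

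**Figure D1:**
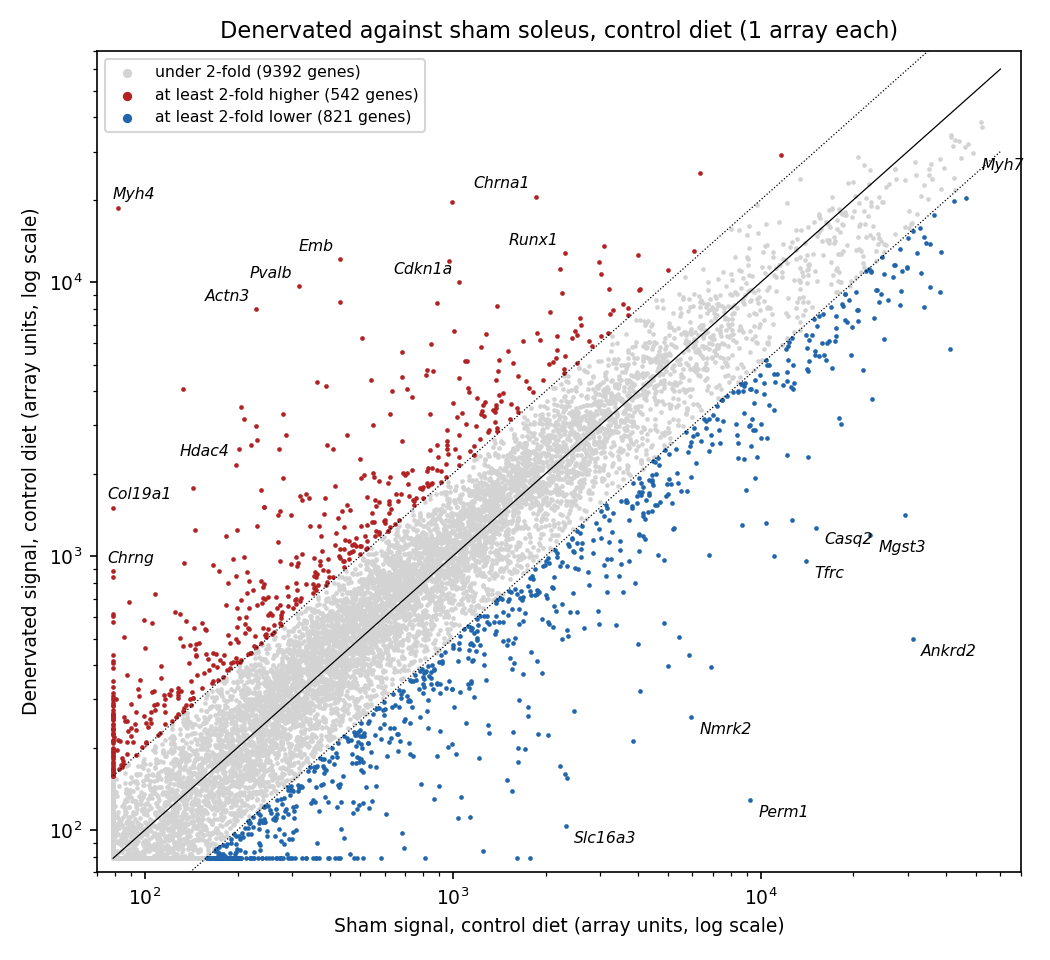
Deposited signal of each measured gene in sham muscle (horizontal, log axis, units) against denervated muscle (vertical, log axis, units) on the control diet, 1 pooled array per axis, with signals below 78.9 units drawn at that floor and the 2-fold lines dotted. Most of the 10755 genes lie between the 2-fold lines, with 542 above and 821 below them, and Myh4 and Perm1 are among the farthest from the diagonal.

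The promoters of Chrna1, Chrng and Myog, which are known to answer to myogenic factors at E-boxes, and of Perm1, the named gene with the lowest ratio, are shown because the results turn on these genes. They are RefSeq sequences of the GRCr8 assembly, from 250 bases before to 50 bases after the gene start, written 5′ to 3′ on the strand of the gene, with matches to the motifs searched in capitals.
Chrna1, chr3:78877304-78877603 (minus strand): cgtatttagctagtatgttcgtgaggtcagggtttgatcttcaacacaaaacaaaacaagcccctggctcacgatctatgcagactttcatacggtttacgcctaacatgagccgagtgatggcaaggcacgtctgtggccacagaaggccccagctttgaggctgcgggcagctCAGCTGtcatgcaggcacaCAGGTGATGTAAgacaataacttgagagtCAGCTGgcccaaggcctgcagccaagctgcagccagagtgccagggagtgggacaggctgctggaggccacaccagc
Chrng, chr9:95325734-95326033 (plus strand): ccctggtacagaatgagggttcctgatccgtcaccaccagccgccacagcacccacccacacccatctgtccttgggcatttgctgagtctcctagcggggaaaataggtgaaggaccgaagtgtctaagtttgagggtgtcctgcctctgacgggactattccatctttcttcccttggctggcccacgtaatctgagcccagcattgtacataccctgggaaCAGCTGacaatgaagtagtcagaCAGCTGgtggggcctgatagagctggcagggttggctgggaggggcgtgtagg
Myog, chr13:48297226-48297525 (plus strand): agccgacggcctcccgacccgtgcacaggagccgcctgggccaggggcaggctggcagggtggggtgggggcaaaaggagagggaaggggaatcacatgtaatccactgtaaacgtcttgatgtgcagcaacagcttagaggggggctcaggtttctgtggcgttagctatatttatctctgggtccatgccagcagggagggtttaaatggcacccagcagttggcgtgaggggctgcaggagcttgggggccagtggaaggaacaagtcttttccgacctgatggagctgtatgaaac
Perm1, chr5:172081999-172082298 (plus strand): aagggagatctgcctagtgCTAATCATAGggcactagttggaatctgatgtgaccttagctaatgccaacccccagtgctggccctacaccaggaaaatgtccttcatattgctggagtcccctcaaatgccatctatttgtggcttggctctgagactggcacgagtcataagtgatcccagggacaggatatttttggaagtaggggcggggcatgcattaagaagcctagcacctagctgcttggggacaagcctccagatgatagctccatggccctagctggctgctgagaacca
In the Chrna1 promoter the E-box CAGCTG starts at -75 and at -27 from the gene start, and the E-box CAGGTG at -56 overlaps a TGATGNAA element, the core of sites for C/EBP and ATF factors, at -52. In the Chrng promoter CAGCTG starts at -26 and at -3. The Perm1 promoter held 1 match, at -231, to CTANNNNTAG, a loose pattern for MEF2 sites. Its inner bases were left open, so a match need not be a MEF2 site. The Myog promoter held no match to any motif searched, which says only that these letters are not in this window. Of the E-boxes only CAGCTG and CAGGTG were searched, and the Myog window holds another form, CAGTTG. It also holds CTATATTTAT, which the MEF2 pattern does not match because its last letters are fixed as TAG. The search therefore does not show that Myog lacks a MEF2 site here. The motifs were searched on both strands, and the oestrogen-related receptor site TNAAGGTCA and the antioxidant core TGACNNNGC had no match in the 4 promoters. CAGCTG was present in 15.1% of all 27457 promoters, in 16.2% of those of 8982 measured genes, in 21.2% of those of 458 genes at least 2-fold higher in denervated muscle and in 18.6% of those of 667 genes at least 2-fold lower. CAGGTG was in 18.7% of all promoters, 17.0% of those of measured genes, 18.6% of those of higher and 19.2% of those of lower genes. TGATGNAA was in 3.82%, 1.96%, 2.18% and 3.15% of the same sets in that order, and the MEF2 pattern in 3.83%, 3.08%, 2.18% and 5.25%. TGACNNNGC was in 12.2%, 14.6%, 16.4% and 14.7%, and TNAAGGTCA in 1.15%, 0.534%, 0.218% and 0.750%. A match describes letters and is no evidence of a bound site.

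Over all measured genes the middle of the distribution did not move, and the tails were heavy. The median log2 ratio was -0.00, with quartiles of -0.40 and 0.36 and with 5th and 95th percentiles of -1.19 and 1.003, and 49.8% of the genes were above 0. At 2-fold, 542 genes (5.04%) were higher and 821 (7.63%) lower in denervated muscle. At 4-fold the counts were 101 (0.939%) and 117 (1.09%), and at 8-fold 31 (0.288%) and 37 (0.344%). Of the higher genes 64 were below the floor in sham muscle, and of the lower genes 109 were below it in denervated muscle, so their ratios are lower bounds of the change. The probe sets of a gene, which share the same arrays, scattered about their mean with an SD of 0.41 log2 units over 2924 genes. Of the 372 genes past 2-fold that had more than 1 measured probe set, 332 (89.2%) had all of them on the same side of 0 and 165 had all of them past 2-fold. The mean deposited signal, with both tails trimmed, was 500.2 units on each array, and scaling by 18 hybridisation control probe sets, whose median log2 ratio was -0.39, would shift the median of all genes to 0.37 and turn the counts at 2-fold to 1350 higher and 376 lower (78.2% of those past 2-fold higher, beside 39.8% as deposited). Where such a shift or another scaling turns the sign of a list below, the sentence says so. The counts of each list at 2-fold are to be read beside the 5.04% higher and 7.63% lower of all genes. Counts near those shares say little about a list.

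The 4 acetylcholine receptor subunits that were measured all had ratios above 0. Of the 4 measured subunits, 3 were at least 2-fold higher and none lower, with a median log2 ratio of 2.63 beside -0.00 for all genes. The median over the subunits measured under each setting was 1.89 with array medians and 2.19 with hybridisation control scaling. It was 1.80 and 1.91 with the floor at the 20th and the 60th percentile. Chrng, the gamma subunit of the fetal receptor, read 26 units in sham muscle, below the floor, and 881 units in denervated muscle, at least 11.2-fold higher. Chrnd, the delta subunit, read 1876 and 6543 units (log2 ratio 1.80), and Chrnb1, the beta subunit, read 810 and 1576 units (0.96), just under 2-fold. Chrne, the epsilon subunit that replaces gamma in the adult receptor, was below the floor on both arrays at 41.6 and 75.0 units, so no ratio is given for it. With array medians, hybridisation control scaling or the floor at the 20th percentile Chrne counts as measured, and the middle subunit is then Chrnd. The medians of 1.89, 2.19 and 1.80 are thus of another set of genes than 2.63 and show no smaller rise of the 4 subunits.

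Genes that build the endplate divided. At 2-fold 3 of the 12 measured genes were higher and 1 lower, with a median of 0.31. Lrp4, the agrin receptor on the fibre, read 333 units in sham and 1692 in denervated muscle (2.34). Erbb2, a neuregulin receptor, was below the floor in sham muscle at 45.2 units and read 389 in denervated muscle, at least 4.93-fold higher. Lama5, a laminin chain of the synaptic basal lamina, read 134 and 943 units (2.82), but its other measured probe set had a ratio of -0.25. Colq, the collagen tail that anchors acetylcholinesterase, was the lower member with 557 and 222 units (-1.33). The scaffold Rapsn (0.41), the adaptor Dok7 (0.22) and the agrin gene Agrn (-0.10) stayed within 2-fold, and Musk, the kinase that Lrp4 works with, read 49.5 and 133 units across the floor.

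Transcription factors of the myogenic programme were higher as far as they passed 2-fold, with 6 of 18 higher, none lower and a median of 0.37. Myod1 read 387 units in sham and 4162 in denervated muscle (3.43), and Myog read 3030 and 10678 (1.82). Hdac4, the deacetylase that represses activity-dependent genes, read 198 and 2157 units (3.45). Runx1, a transcription factor known to protect denervated fibres, read 2308 and 12764 units (2.47), with 4.15 on its other probe set. The Id2 inhibitor of myogenic factors (1.21) and the homeobox factor Six4 (1.02) completed the 6. Other members of the same families were within 2-fold: the fourth myogenic factor Myf6 had a ratio of 0.02, Mef2c 0.14 and Hdac5 -0.39.

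Of 13 genes listed because they are known to rise after nerve loss, 11 were at least 2-fold higher, with a median of 2.52. The list includes Hdac4 and Runx1 counted above, and its choice leaves its direction no independent evidence. With the mean of each gene's probe sets the median was 1.51, where probe sets below the floor on both arrays counted as 0. Cdkn1a, the cell cycle inhibitor p21, read 1044 and 9979 units (3.26), and Gadd45a, a stress gene that acts downstream of HDAC4 in muscle, read 886 and 8403 (3.25). Fst, the myostatin antagonist follistatin, read 288 and 2769 units (3.27). Tnnt2, the cardiac and embryonic troponin T, read 542 and 4408 (3.02), Kcnn3, a calcium-activated potassium channel, 99 and 583 (2.55), and the adhesion molecule Ncam1 709 and 4079 (2.52), although the second Ncam1 probe set was at 0.00. Embryonic myosin Myh3 (-0.78) and Nnmt, an enzyme that methylates nicotinamide (-0.73), were the 2 members below 0. On genistein Myh3 was at 0.50 and Nnmt at 0.11, and that difference between the pairs was not tested. Among genes outside this list, Sat1, which acetylates polyamines for breakdown, was at 1048 and 4470 units (2.09).

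The myosin heavy chains showed no single direction: of 7 measured genes 1 was higher, 2 were lower and the median was -0.78. Beside the increase of Myh4, the IIa myosin Myh2 read 38431 and 12870 units (-1.58) and the cardiac alpha myosin Myh6 261 and 110 (-1.25). Myh1, the IIx myosin, had 5 probe sets with ratios from -0.99 to 1.01, so its direction is not settled by these arrays. Slow myosin Myh7 was at -0.73 on its brighter probe set and at -2.05 on the other, and perinatal Myh8 was at 0.64. Myosin heavy chains are near-identical over long stretches, so a probe set may read more than the gene it is named for, and these ratios are uncertain to that extent.

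Slow-fibre genes were lower without exception in their sign. Of 14 measured genes of the slow sarcomere and slow calcium handling, 9 were at least 2-fold lower, none was higher, and the median was -1.08, which stayed between -0.99 and -0.63 under the 3 other scalings. Ankrd2, an ankyrin-repeat protein of slow fibres that responds to stretch, read 31109 units in sham and 496 in denervated muscle (-5.97). Tpm3, slow tropomyosin, read 29301 and 1415 units (-4.37), with its 12 probe sets from -4.37 to -0.03. Casq2, the cardiac and slow calsequestrin that stores calcium in the reticulum, read 15165 and 1271 (-3.58), and Myl2, the regulatory light chain of slow fibres, 38169 and 9204 (-2.05). Myl3, the slow essential light chain, was at -1.11 and slow troponin I Tnni1 at -1.05.

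Fast-fibre genes did not form the mirror image of this. At 2-fold 4 of the 14 measured were higher and 2 lower, and their median of -0.38 turned to 0.06 under quantile and 0.01 under hybridisation control scaling. The 4 higher genes were Myh4, Actn3, Pvalb and Mybpc2. Actn3, the alpha-actinin of fast Z-discs, read 230 units in sham and 7988 in denervated muscle (5.12). Pvalb, the calcium buffer parvalbumin, read 316 and 9658 units (4.93), and Mybpc2, fast myosin-binding protein C, 199 and 1243 (2.64). On genistein Mybpc2 read 735 and 1012 units (0.46), within 2-fold, while Myh4 (6.30), Actn3 (2.92) and Pvalb (5.77) were past it. The 2 lower genes on the control diet were Myh2 and Myoz3, a calsarcin of fast fibres, which read 2342 and 154 units (-3.92). The other Myoz3 probe set read 166 units in sham and 11.3 in denervated muscle, below the floor, so its -1.07 is a bound.

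The rest of the contractile apparatus was mostly lower. Of 26 thick filament, M-band and Z-disc proteins, 23 were below 0, 10 at least 2-fold lower and 2 higher (Actn3 and Mybpc2), with a median of -0.74. Ldb3, a PDZ-LIM protein of the Z-disc, read 25054 and 6207 units (-2.01), Xirp1, a protein of sites under load or repair, 4034 and 1209 (-1.74), and Csrp3, the muscle LIM protein, 28593 and 9327 (-1.62). Of 8 light chains and tropomyosins 5 were at least 2-fold lower (median -1.09), among them Tpm2 at -1.62, while the embryonic and atrial light chain Myl4 was higher with 1050 and 2144 units (1.03). Of 7 troponins only Tnnt2 passed 2-fold upward and Tnni1 downward, and their median of -0.38 became 0.04 under quantile and 0.01 under hybridisation control scaling. Titin (Ttn, -0.37), desmin (Des, -0.63) and myoglobin (Mb, -0.44) stayed within 2-fold.

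Genes of calcium handling and membrane excitability included related genes with opposite ratios. Of 19 calcium release and uptake genes 3 were higher and 5 lower at 2-fold, and the median of -0.29 was 0.06 under quantile and 0.10 under hybridisation control scaling. Jph2, which joins the reticulum to the surface membrane, read 3492 units in sham and 1054 in denervated muscle (-1.73), and the ryanodine receptor Ryr3 read 996 and 206 (-2.27). Sarcolipin (Sln), an inhibitor of the reticular calcium pump, was higher at 11620 and 29196 units (1.33), and its relative phospholamban (Pln) was lower at 504 and 246 (-1.04). Cacnb1, the beta subunit of the calcium channel that triggers contraction, read 948 and 2168 (1.19).

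In the calcineurin and CaMKII group 1 of 15 genes was at least 2-fold higher and 4 lower, with a median of -0.19 that turned to 0.19 under hybridisation control scaling. Rcan1, a calcineurin inhibitor whose gene is itself switched on by calcineurin and NFAT, read 10374 and 1317 units (-2.98), and its relative Rcan2 read 3572 and 8328 (1.22). The NFAT factors Nfatc1 (-1.03) and Nfatc2 (-1.07) were also past 2-fold. Among 11 measured channel and sodium pump genes 4 were higher and 4 lower (median -0.56). Scn4b, a beta subunit of voltage-gated sodium channels, read 19663 and 5415 units (-1.86), while the potassium channels Kcnn3 (2.55) and Kcnc4 (1.48) were higher. The potassium channel Kcna2 was at least 4.42-fold higher from below the floor. Its other measured probe set went the other way, with 86 and 52.2 units (-0.12, a bound). Scn4a, the main sodium channel of muscle, was below the floor on both arrays. In the dystrophin complex 1 of 9 genes was higher and 1 lower: the caveolin Cav3 read 4026 and 1193 units (-1.75), the dystrophin gene Dmd read 12 units, below the floor, and 197 units, and the median of -0.30 was 0.09 under hybridisation control scaling.

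Mitochondrial energy genes were lower nearly throughout. Of 34 complex I genes 20 were at least 2-fold lower, none higher, and 33 were below 0, with a median of -1.09 beside -0.00 for all genes and 7.63% of all genes called lower. Of 41 genes of complexes II to V and cytochrome c, 21 were at least 2-fold lower, none higher, and 40 were below 0 (median -1.001). Both medians stayed below -0.5 under every scaling tried. Ndufa5, a complex I subunit, read 9163 units in sham and 2985 in denervated muscle (-1.62), Cyc1, cytochrome c1 of complex III, 20627 and 7215 (-1.52), and Cox5b, a subunit of complex IV, 24646 and 9081 (-1.44). All 4 succinate dehydrogenase genes (complex II) were past 2-fold, between -1.45 for Sdhc and -1.14 for Sdha. The exceptions were Ndufs4 at 0.21 and Atp5if1, the inhibitor of the ATP synthase, which read 3419 and 6018 units (0.82) while 15 of the 16 ATP synthase genes were below 0.

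The supply of fuel to the respiratory chain was lower in the same manner. All 22 citric acid cycle and pyruvate genes were below 0, 12 of them at least 2-fold (median -1.04), led by the mitochondrial pyruvate carrier Mpc1 with 21462 and 4790 units (-2.16) and its partner Mpc2 with 12520 and 4156 (-1.59). Of 27 fatty acid genes 12 were at least 2-fold lower and 1 higher (median -0.91). Hadh, a dehydrogenase of short-chain fatty acid oxidation, read 12639 units in sham and 1358 in denervated muscle (-3.22), the fatty acid carrier Fabp3 35383 and 9612 (-1.88), and the uptake protein Cd36 8434 and 2580 (-1.71). The uncoupling protein Ucp3 was the higher member with 1436 and 3690 units (1.36).

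Genes of glycolysis were also lower, although Myh4, the myosin of glycolytic fibres, was higher. Of 26 genes of glycolysis, glycogen and sugar transport, 12 were at least 2-fold lower and 1 higher, with a median of -0.84. Slc16a3, the lactate exporter typical of glycolytic fibres, read 2328 units in sham and 103 in denervated muscle (-4.50). Slc2a4, the insulin-responsive glucose transporter GLUT4, read 10453 and 2710 (-1.95), Eno3, the muscle enolase, 28369 and 8229 (-1.79), and Pfkfb1, a bifunctional enzyme that sets fructose 2,6-bisphosphate, 1297 and 242 (-2.42). Its relative Pfkfb3 was the higher gene at 248 and 518 units (1.07). Of 7 genes of energy buffering, Ckmt2, the mitochondrial creatine kinase, was lowest with 41099 and 5696 units (-2.85), Gamt, the last enzyme of creatine synthesis, was at -1.81, and the AMP deaminase Ampd3 was higher (1.03), with a list median of -0.57.

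Other mitochondrial genes moved less, and the counts of lower ribosomal and carrier genes were near the share of 7.63% over all genes. Of 73 mitochondrial ribosomal protein genes 7 were at least 2-fold lower, none was higher and 60 were below 0, with a median of -0.44. Of 34 solute carriers of the inner membrane 3 were lower and 1 higher, and the median of -0.27 was 0.07 under hybridisation control scaling. Slc25a16, a carrier of the inner membrane, was the higher one with 556 and 1938 units (1.80). Of 20 regulators of oxidative metabolism 7 were lower and 1 higher (median -0.41). After Perm1 the lowest were the coactivator Ppargc1b with 1560 and 389 units (-2.01), the mitochondrial deacetylase Sirt3 with 2168 and 631 (-1.78) and the orphan receptor Nr4a1 with 561 and 170 (-1.73), and the receptors Esrra (-1.40) and Esrrg (-1.09) were also past 2-fold. Ppargc1a, the best known coactivator of mitochondrial biogenesis, was within 2-fold at 929 and 628 units (-0.57). Prkag3, the AMP-activated kinase subunit of fast fibres, was the higher member with 846 and 5972 units (2.82).

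**Figure D2:**
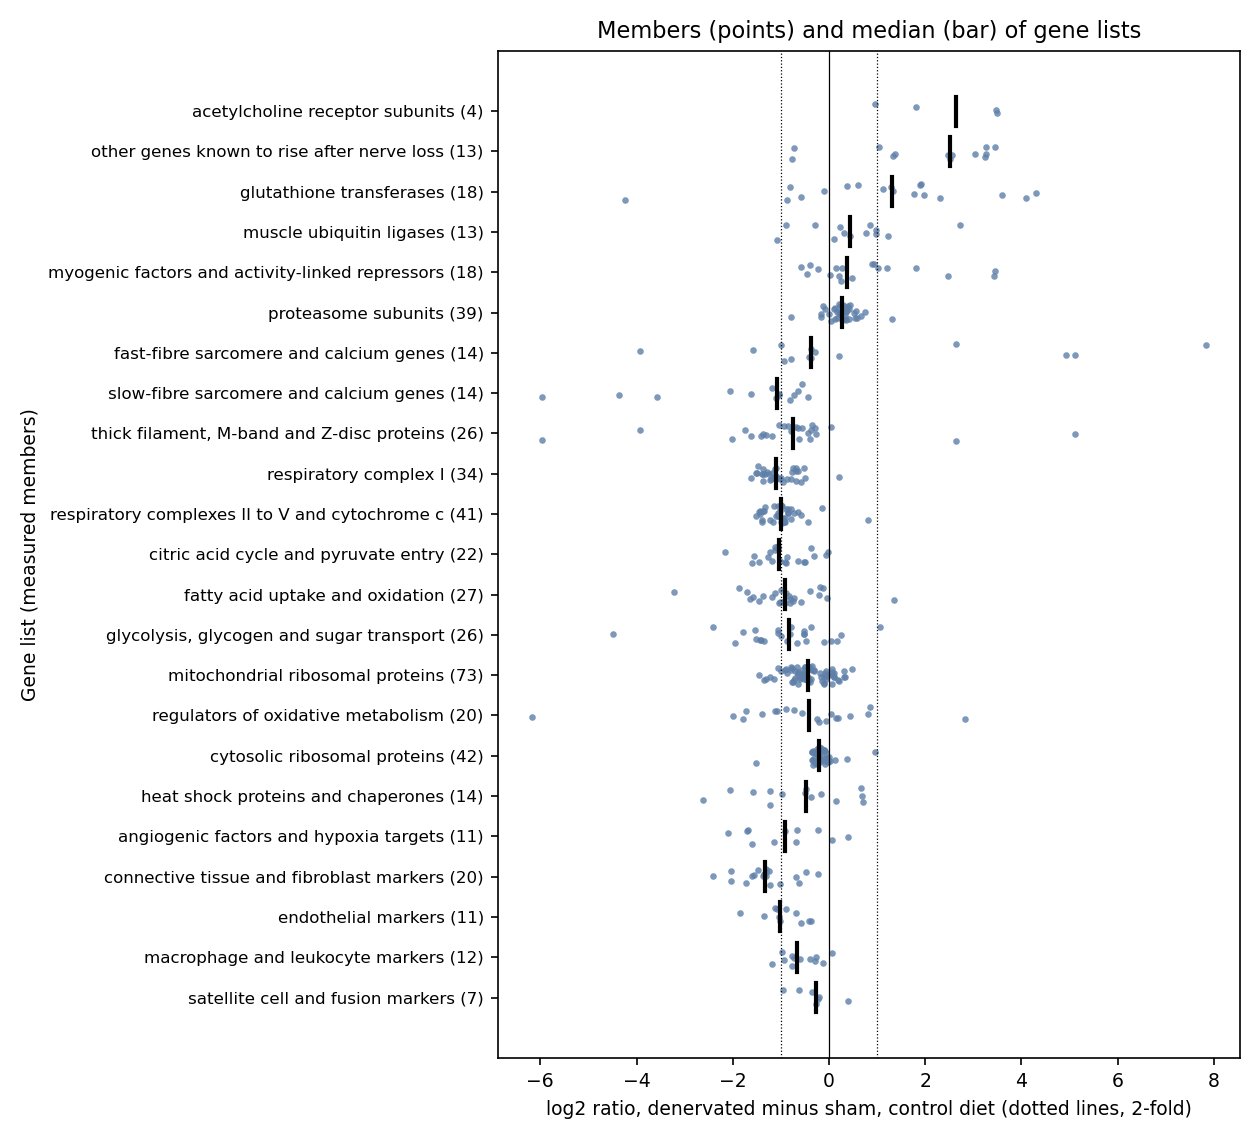
Log2 ratio, denervated minus sham on the control diet, of each measured member (points) of a selection of the gene lists (rows, number of members in brackets), with the list median as a bar and the 2-fold lines dotted. The receptor subunits, the genes known to rise after nerve loss and the glutathione transferases have medians above 1, and the respiratory, slow-fibre and connective tissue lists have medians at or below -1.

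Genes of protein breakdown included higher and lower members. Among 13 muscle ubiquitin ligases 2 were higher and 1 lower (median 0.43), beside 5.04% higher and 7.63% lower among all genes. Fbxo30, the ligase also called MUSA1, read 686 units in sham and 4517 in denervated muscle (2.72), and Trim63, or MuRF1, read 4058 and 9461 (1.22). Fbxo32, or atrogin-1, was just under 2-fold at 231 and 456 units (0.98), as was Nedd4 on its brightest probe set (0.98), whose 6 probe sets ran from 0.26 to 2.05, and Asb2 was lower (-1.07). Of the 39 proteasome genes 34 were above 0, the lowest was Psmd9 at -0.79, and 1, the immunoproteasome subunit Psmb9, passed 2-fold with 459 and 1135 units (1.31). Their median was 0.27, with 0.17 for the core particle, 0.34 for the regulatory particle and 0.59 for the 5 genes of the immunoproteasome and its activator. Of 18 autophagy and lysosome genes the cathepsin Ctsl alone passed 2-fold (4021 and 9359 units, 1.22), with a median of 0.10. Of 7 calpains and caspases, Capn3, the muscle calpain, was lower at 5150 and 1563 units (-1.72) and Casp12 higher (1.17).

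Genes of protein synthesis mostly stayed within 2-fold. Of 42 cytosolic ribosomal protein genes 1 was past 2-fold, and their median of -0.20 became 0.26 under quantile and 0.19 under hybridisation control scaling. That gene was Rpl3l, the muscle form of ribosomal protein L3, with 17434 and 6082 units (-1.52). The form of other tissues, Rpl3, read 8012 and 15619 units (0.96), with -0.39 on its lowest probe set. Of 60 genes of translation factors and enzymes that modify them 2 were higher (median 0.14), and both were such enzymes. Eef2k, the kinase that blocks elongation factor 2, read 526 and 1640 units (1.64), with probe sets from -0.42 to 2.05. Eef1akmt1, a methyltransferase of an elongation factor, read 221 and 443 units (1.004). Of 19 tRNA synthetases 2 were lower, Vars1 (-1.38) and Aars1 (-1.29), and the median of -0.06 was 0.02 under scaling by array medians and 0.32 under hybridisation control scaling. In the list of ATF4 targets 1 of 18 was higher and 3 lower. Trib3, a pseudokinase that restrains Akt, read 89 and 682 units (2.94), and Ddit3, or CHOP, read 1909 and 741 (-1.37), with a list median of -0.07 that turned to 0.13 under hybridisation control scaling.

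Glutathione transferases, which attach glutathione to reactive molecules, were among the genes with the largest increases. Of 18 measured 11 were at least 2-fold higher and 1 lower, with a median of 1.31 beside 5.04% of all genes called higher. Mgst2, a microsomal member, read 429 units in sham and 8481 in denervated muscle (4.31), Gstt3 read 205 and 3517 (4.10) and Gstm2 202 and 2453 (3.60). Gsta1 read 6333 and 24985 units (1.98), and Gstt1 was at least 3.78-fold higher from below the floor. Mgst3 was the exception in the other direction, with 22670 and 1195 units (-4.25). Of 22 antioxidant and Nrf2 target genes 4 were higher and 1 lower (median 0.25): the quinone reductase Nqo1 read 1114 and 5135 units (2.20), Hmox1, which breaks down haem, 202 and 596 (1.56), Gclm, a subunit of the enzyme that starts glutathione synthesis, 559 and 1600 (1.52) and Gpx1 28660 and 11033 (-1.38). Of 14 heat shock genes 5 were lower and none higher (median -0.49), and among the 7 small heat shock proteins, chaperones of the sarcomere, 4 were lower with a median of -1.23. Hspb7 read 22910 and 3743 units (-2.61), with -1.57 on its least changed probe set, and Hspb6 read 33970 and 8116 (-2.07).

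Growth factor signalling was mixed. Of 21 insulin-like growth factor, Akt and FoxO genes 3 were higher and 3 lower (median 0.36). Pik3r1, the regulatory subunit of PI3-kinase, read 271 units in sham and 1413 in denervated muscle (2.38), Igfbp5 read 2226 and 11134 (2.32) and Foxo1, a transcription factor that drives ubiquitin ligases, 212 and 565 (1.42). Igfbp6 (-1.34), the insulin receptor substrate Irs2 (-1.12) and Igfbp3 (-1.01) were lower, and Igf1 was within 2-fold at 1621 and 929 units (-0.80). In the TGF-beta group 4 of 19 were higher and 3 lower (median 0.18). Beside Fst, the latent TGF-beta binding protein Ltbp1 read 626 and 3310 units (2.40), Smad3 and Tgfb2 were each at 1.33, and Inhba, the activin subunit, was lower at 443 and 93 units (-2.25). Mstn, myostatin, was below the floor on both arrays.

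Smaller groups held single genes with large ratios. Tfrc, the transferrin receptor that takes up iron, read 13970 units in sham and 957 in denervated muscle (-3.87), and Alas1, the first enzyme of haem synthesis, 3475 and 842 (-2.04), while the iron exporter Slc40a1 read 313 and 923 (1.56). Of the 11 iron and haem genes 1 was higher and 2 lower, with a median of -0.22 that was 0.17 under hybridisation control scaling. Nmrk2, the muscle kinase that starts NAD synthesis from nicotinamide riboside, read 5946 and 258 units (-4.53), in a list of 9 NAD genes with 2 lower and a median of -0.38 that was 0.01 under hybridisation control scaling. Of 10 polyamine genes Sat1 was higher and the ornithine decarboxylase Odc1 lower (-1.04), and the median of -0.18 was 0.21 under hybridisation control scaling. Of 17 amino acid transporters 3 were lower and none higher (median 0.02), led by the arginine and lysine transporter Slc7a1 with 487 and 119 units (-2.03). Of 16 clock genes 2 were higher and 3 lower (median -0.45), and of 14 cell cycle genes Cdkn1a was higher and cyclin D1 Ccnd1 lower (-1.40), with a median of 0.01.

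In several families 1 member was higher and another lower, and these were chosen after their values were seen. Among the ankyrin-repeat proteins Ankrd1 read 2187 and 5635 units (1.37) where Ankrd2 was at -5.97. Among the sodium pump beta subunits Atp1b2 read 175 and 417 units (1.25), Atp1b1 12126 and 4344 (-1.48), and Atp1b4, a muscle form, 684 and 98 (-2.81). Among the tubulins Tubb6 read 845 and 3302 units (1.97), Tubb2a was at 1.11 and Tuba8 read 5434 and 508 (-3.42). Different probe sets are not compared in level here: each ratio is within its own probe set.

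**Figure D3:**
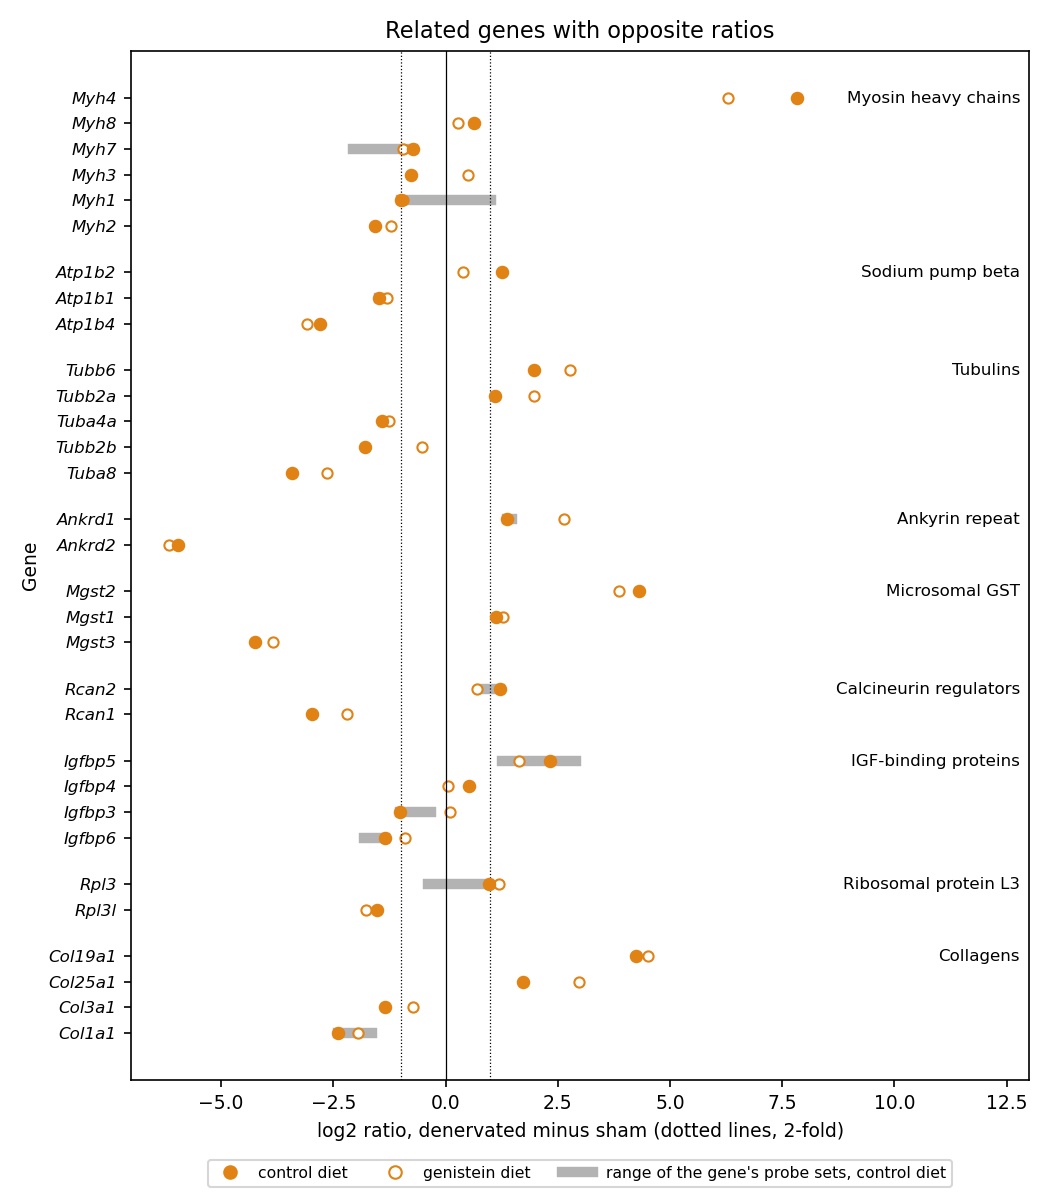
Log2 ratio, denervated minus sham (horizontal), of related genes (rows) on the control diet (filled) and on the genistein diet (open), with a grey bar for the range over a gene's probe sets on the control diet. In the control pair Mgst2 is at 4.31 and Mgst3 at -4.25, Ankrd1 at 1.37 and Ankrd2 at -5.97, and Rcan2 at 1.22 and Rcan1 at -2.98.

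Whole soleus also holds fibroblasts, vessels, nerve and blood cells, and in pooled tissue RNA fewer cells of a type and less RNA per cell cannot be told apart. Markers of connective tissue were lower in every case: 20 of 20 measured were below 0, 16 at least 2-fold, with a median of -1.33, and their summed signal was 84284 units in sham and 34764 in denervated muscle. Postn, a matrix protein of active fibroblasts, read 5223 and 1270 units (-2.04), Col1a1, the main collagen of tendon and scar, 2982 and 564 (-2.40) and Sparc, a collagen-binding matrix protein, 5944 and 1950 (-1.61). The receptor Pdgfra, which defines fibro-adipogenic cells, was within 2-fold at 1214 and 1038 units (-0.23). On the genistein diet the same 20 markers had a median of -0.68 with 2 at least 2-fold lower, so the 2 pairs gave different sizes, and that difference was not tested. The 3' to 5' signal ratio of the beta-actin control probe sets, a sign of RNA length, was 2.08 (sham) and 3.79 (denervated) in the control pair and 2.32 and 2.76 in the genistein pair, and its part in these ratios was not tested. The same ratio for Gapdh was 1.24 and 1.14 on the control diet. For hexokinase it was 5.38 and 0.575 there, but both of its control probe sets read from 4.7 to 47.3 units on the 4 arrays, all below the floor.

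Markers of the other cell types differed more in size, and on the genistein diet some lists had medians of the other sign or near 0. Of 11 endothelial markers all were below 0 and 6 at least 2-fold lower (median -1.02), with summed signals of 5873 and 3030 units, including Kdr, the main receptor for VEGF, at 1010 and 282 units (-1.84). On genistein the endothelial median was -0.41, that of macrophage and leukocyte markers -0.03, that of Schwann cell and nerve markers 0.45, and that of adipocyte markers 1.01 with 3 of 6 at least 2-fold higher. Of 12 macrophage and leukocyte markers 11 were below 0 and 1 at least 2-fold lower (median -0.66), with sums of 12651 and 8422 units, and the general leukocyte marker Ptprc read 216 and 180 units (-0.26). Itgam, Cd3e and Cd79b, markers of myeloid, T and B cells, were below the floor on both arrays. Of 8 smooth muscle and pericyte markers 3 were lower (median -0.41, sums of 39816 and 31456 units), of 4 erythrocyte markers 1 (median -0.62, sums of 15741 and 10520 units), and of 5 adipocyte markers 1 (sums of 7693 and 4285 units), where the median of -0.17 was 0.21 under hybridisation control scaling. In the smooth muscle and pericyte list Mustn1 alone gave 16316 and 16565 units of the sums, so these hardly describe the dimmer markers. Its lower members were Acta2 with 826 and 271 units (-1.61), Tagln with 561 and 144 (-1.96) and Cspg4 with 362 and 90 (-2.01). Rgs5 (-0.19) and Myh11 (-0.06) stayed within 2-fold. None of 7 satellite cell and fusion markers passed 2-fold (sums of 3249 and 2380 units), and their median of -0.27 was 0.11 under hybridisation control scaling. Among 6 Schwann cell and nerve markers the neurofilament gene Nefm was higher at 115 and 286 units (1.31), the median was 0.03, sums were 3665 and 3907 units, and Sox10, Ngfr, Gfap and Nefl were below the floor on both arrays.

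Collagens as a family carried the connective tissue values and 3 exceptions. Of 30 measured 16 were at least 2-fold lower and 3 higher (median -1.12), and the 9 genes of fibrillar and beaded collagens were all at least 2-fold lower, from -2.40 for Col1a1 to -1.22 for Col6a2, whose denervated signal lay below the floor. The higher ones were all below the floor in sham muscle: Col19a1 read 10.2 units there and 1504 in denervated muscle, at least 19.1-fold higher, Col25a1 read 65 and 261 and Col7a1 11 and 167. Col25a1 is a transmembrane collagen of muscle fibres that motor axons need to innervate them. On genistein 5 of 31 measured collagens were at least 2-fold lower and 3 higher (median -0.67), and the fibrillar and beaded genes had a median of -0.76. That difference between the pairs was not tested. Of 23 matrix proteases and their inhibitors 6 were lower and 1 higher (median -0.67), with Adamts8, a matrix protease, at 1257 and 84 units (-3.90). Of 11 angiogenic and hypoxia genes 5 were lower and none higher (median -0.91): Vegfa read 3156 and 737 units (-2.10), Vegfb 3173 and 973 (-1.71), and the hypoxia-inducible factor Epas1 4440 and 1462 (-1.60).

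The 25 highest and 25 lowest ratios among genes above the floor on both arrays were named by a rule, and ran upward from 3.17 and downward from -3.20. Besides the genes above, the highest held Emb, embigin, a chaperone of lactate transporters, with 431 and 12149 units (4.82), Sncg, gamma-synuclein, with 993 and 19575 (4.30), and Acsl4, an enzyme that activates arachidonic acid, with 975 and 11919 (3.61). Armc9 read 133 and 4089 units (4.94), and its 3 probe sets ran from 0.02 to 4.94. Adam19, a metalloprotease that sheds neuregulin, read 362 and 4312 (3.58), with 4 probe sets from 0.06 to 3.58. The lowest probe set of each was below the floor in sham muscle, with 19 and 79.9 units for Armc9 and 26 and 82.2 for Adam19. Their ratios of 0.02 and 0.06 are thus lower bounds of the change. The others were the homeobox factor Irx3 (3.91), Aif1l (3.71), Ppp1r14c, a phosphatase inhibitor (3.63), the kinase Dclk1 (3.62), Adap2 (3.56), the kallikrein Klk1 (3.52), Tmem100 (3.52) and Paqr8 (3.17). The lowest probe set of Tmem100 was at 0.56, that of Paqr8 at 1.18, that of Aif1l at 1.24 and that of Dclk1 at 1.69. Those of Tmem100, Paqr8 and Aif1l were also below the floor in sham muscle, so their ratios are lower bounds. Of the 25, 10 had more than 1 measured probe set.

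Among the lowest were several genes known for their place in calcium handling or fat and nucleotide metabolism. Dhrs7c, a reductase of the sarcoplasmic reticulum, read 5842 units in sham and 434 in denervated muscle (-3.75), Ramp1, a receptor partner for the peptide CGRP, 3846 and 212 (-4.18), and Mettl21c, a muscle methyltransferase, 6876 and 395 (-4.12). G0s2, an inhibitor of fat breakdown, read 4049 and 322 (-3.65), Acss1, which makes acetyl-CoA from acetate in mitochondria, 2314 and 160 (-3.85), and Lrrc39, an M-band protein, 11029 and 1001 (-3.46). Itgb1bp2, the muscle chaperone melusin, read 4988 and 396 units (-3.65). The others were Vtcn1 (-3.50), Ube2ql1 (-3.35), Gadl1 (-3.30), Ppm1j (-3.24), the cytidine deaminase Cda (-3.20) and the endothelial proteoglycan Esm1 (-3.20). Below the floor in denervated muscle, and chosen after their values were seen, were Asb18, a muscle ligase adaptor, with 1776 and 54.4 units (at least 22.5-fold lower), Endou with 1613 and 70.5 (at least 20.4-fold lower) and the water channel Aqp4 with 392 and 43.8 (at least 4.97-fold lower).

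The share of genes past 2-fold depended on how bright they were on an array outside the comparison, the genistein sham array. Of 3183 genes that read from 78.9 to 300 units there, 6.66% were higher and 5.53% lower in the control pair. Of 925 genes from 3000 to 10000 units, 1.73% were higher and 16.3% lower. Of 296 genes from 10000 to 30000 units none was higher, 33.8% were lower and the median was -0.69, and of the 35 genes above 30000 units none was above 0, 12 were at least 2-fold lower and the median was -0.79. Genes that were bright in soleus were thus seldom higher in denervated muscle.

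**Figure D4:**
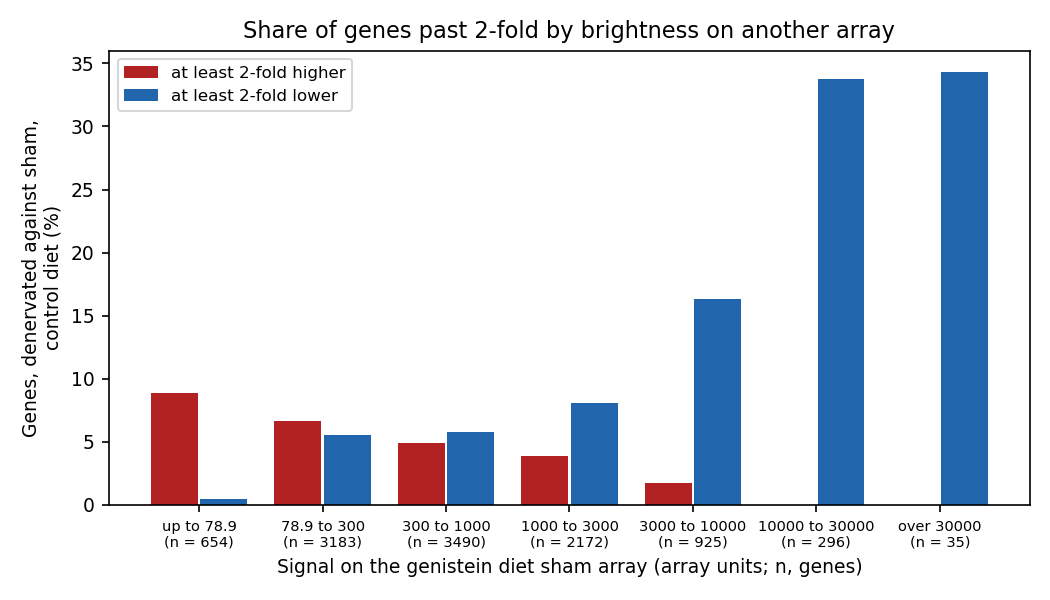
Share of genes higher and of genes lower by 2-fold or more, denervated against sham muscle of the control pair (vertical, percent), in classes of signal on the genistein sham array (horizontal, units), which is not part of the comparison. From the class of 78.9 to 300 units to the brightest, of 35 genes, the share of lower genes goes from 5.53% to 34.3% and that of higher genes from 6.66% to 0, while genes of the dimmest class, below the floor on that array, could hardly be called lower because of the floor.

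The genistein pair shares no array with the control pair and gave like ratios for the largest differences. All 50 genes of the rule had the same sign and were past 2-fold on genistein, and 45 of them were within 1 log2 unit. The 5 others were Myh4 (7.84 on the control diet and 6.30 on genistein), Actn3 (5.12 and 2.92), Klk1 (3.52 and 4.69), Tmem100 (3.52 and 4.53) and Nmrk2 (-4.53 and -3.47). Of the 542 genes higher on the control diet 535 were above 0 on genistein, and of the 821 lower genes 795 were below 0. The median ratios of these genes were 1.37 and -1.32 on the control diet, which chose them, and 1.26 and -1.20 on genistein. With 1 array per group, diet, rats and array cannot be told apart in any difference between the pairs.

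**Figure D5:**
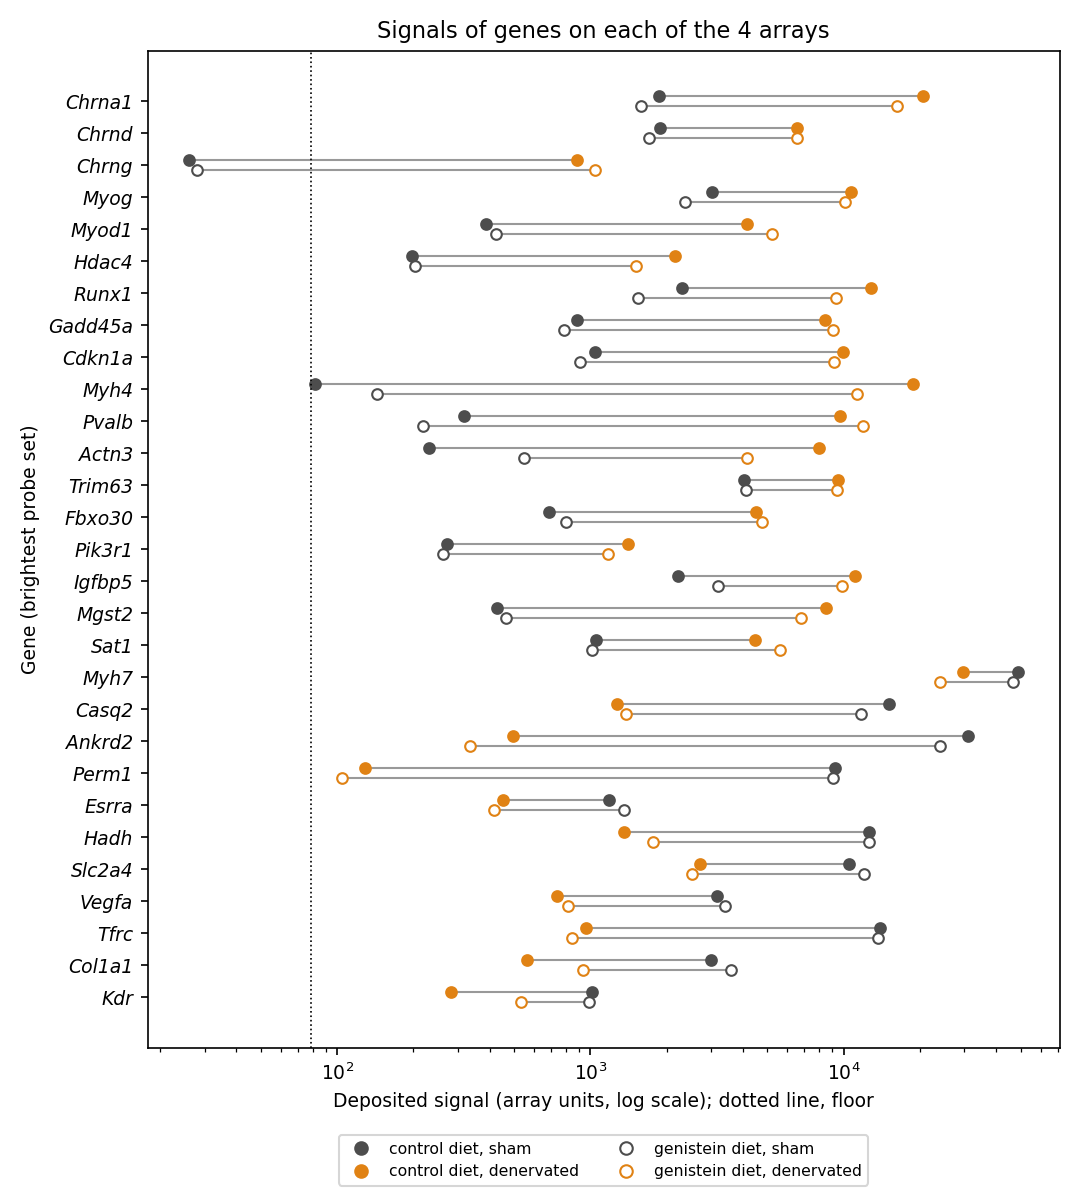
Deposited signal (horizontal, log axis, units) of selected genes (rows) on the 4 arrays, with a line joining sham (dark) to denervated muscle (orange) for the control diet (filled circles) and for the genistein diet (open circles), 1 pooled array per circle. In every gene drawn the denervated circle lies on the same side of the sham circle in both diets, and the control circles of Chrna1 are at 1860 and 20550 units and those of Perm1 at 9243 and 128 units.

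Of the probe sets without 1 gene symbol, 5269 were measured, and 305 (5.79%) were at least 2-fold higher and 248 (4.71%) lower in denervated muscle. They are not named here, and their share past 2-fold was of the same order as that of the named genes.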

How the data were processed

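RNA of 8 rats per group was pooled and hybridised to 1 Affymetrix rat array per group after labelling with a 3′ kit, per the labels' protocols. The deposited value is a linear intensity for each probe set on each array, made by the authors with GCOS 1.1 per the submitters' processing notes. The scaling target and genome build are not given in the sources used here. Of 31099 probe sets 57 controls were set aside, 20826 had 1 gene symbol, 436 had several and 9780 had none listed. Of the identifiers of those with 1 symbol, 20758 matched RefSeq (GRCr8), and 0 symbols were updated. Deposited signals were used without further normalization, and a floor of 78.9 units replaced any lower signal, set at the 40th percentile over the 4 arrays with controls left out. A gene is represented by the probe set that was brightest on average (log2, 4 arrays). A ratio is log2 of denervated over sham signal and counts as a bound where either signal was at the floor.

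With 1 array per group no test was made. Genes were counted at a fixed 2-fold, and a list is described by its counts and its median beside those of all measured genes. The number of arrays limits the precision. Genes named were the marker genes, the 25 highest and 25 lowest ratios among genes with an established symbol above the floor on both arrays, and in each of 54 lists up to 3 highest and 3 lowest members and those that define its function. The members and lists were chosen with earlier results of these data known. Counts by brightness class, smaller lists within lists and the families with members of opposite ratio were added after the values were seen. Groups were taken from the titles. Ratios were recomputed with other floors, a pseudocount of 16 units, other probe set rules and 3 other scalings (array medians, quantile and hybridisation controls). The computation used Python 3.11.15 with numpy 2.4.6, pandas 2.3.3 and matplotlib 3.10.9. It was tested on a copy of the sham array with known changes and no noise. That checks the arithmetic, and not dim genes near the floor or probe sets that disagree.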

Additional observations from a re-analysis of the deposited data

Results flagged for a closer look

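Probe set 1387902_a_at, which has no single gene symbol in the annotation and entered no comparison of named genes, read 192 units in sham and 6051 units in denervated muscle on the control diet, a log2 ratio of 4.97, and 125 and 6170 units on genistein. It stands out because no gene is reported for it.

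3 genes of the lists were at least 2-fold lower on the control diet and above 0 on genistein, 1 array each, and the difference between the diets was not tested. Tie1, a receptor kinase of endothelium, read 236 and 109 units on the control diet (-1.11) and 137 and 189 units on genistein (0.46). Fstl3, a follistatin-like antagonist of activin, read 205 and 12.4 units (-1.38, a bound) and 107 and 163 units (0.61). Igfbp3, a binding protein for insulin-like growth factors, read 444 and 221 units (-1.01) and 332 and 355 units (0.10), with -0.32 on its second probe set on the control diet.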

How the results depend on the processing

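Scaling by the hybridisation control probe sets gave 1350 genes higher and 376 lower at 2-fold, beside 542 and 821 with the deposited scaling, and a floor at the 20th percentile gave 1318 lower genes; a lower floor admits dimmer genes, and why they fell on this side was not tested. The other alternatives tried (array medians, quantile normalization, a floor at the 60th percentile, 16 units added in place of a floor, and the mean or median of a gene's probe sets) kept both counts within 1.5 times. Among the 54 list medians 14 changed sign under a scaling, as given beside each. The receptor subunits' median of 2.63 ranged from 1.80 to 2.67, with Chrne entering the measured set under some settings. The median of the genes known to rise after nerve loss went from 2.52 to 1.51 with the mean of probe sets. That mean also takes in probe sets below the floor on both arrays, at a ratio of 0. The second Tnnt2 probe set, at 34.3 and 9.1 units, is 1 of them. No paired analysis was possible because each group is 1 pooled array, and no replicate could be left out. Without detection calls, signals near 78.9 units cannot be told from background.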
